A study of Mus musculus with 18 samples.

Results

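The difference common to 3 tissues of female mice lacking Car6 was estimated over 18 Illumina bead arrays, which are all the arrays of the series. Of these, 9 came from Car6-/- mice and 9 from wild-type mice. Each genotype had 3 arrays of the saliva-producing submandibular gland, 3 of the stomach and 3 of the duodenum. All animals are labelled C57BL/6 and were 2 months old, and the labels name no treatment. The arrays were assigned by their labels: every array labelled as knockout was set against every array labelled as wild type, with tissue as an additive term. The series text names 3 mice of each genotype, so the 3 arrays of a group were separate animals, and the tissues may come from the same 6 mice. Nothing in the text says whether equal replicate numbers in different tissues mark 1 animal.

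Carbonic anhydrases catalyse the reversible hydration of CO2 to bicarbonate and a proton. Car6 encodes carbonic anhydrase VI, the secreted member of the family, which salivary glands release into saliva and which is also found in milk. Saliva carries the enzyme onto the surfaces of the mouth and the upper digestive tract, where bicarbonate and protons set the local pH. The comparison asks which transcripts differed between the genotypes on average over the 3 sites. A second test asks whether the difference varied between the sites.

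The Car6 probe checks the genotype labels in 1 tissue. Its deposited signals were 63.6, 55.1 and 51.0 on the Car6-/- submandibular arrays, against 113.6, 106.5 and 158.2 on the wild-type ones. It was detected (detection p under 0.01) on 0 of 3 Car6-/- arrays and 3 of 3 wild-type arrays of that gland, and the groups did not overlap. On quantile-normalized signals, the scale of every bound given here, the level was at least 1.87-fold lower in Car6-/- mice, a bound because the probe was undetected there. The probe was undetected on the stomach and duodenal arrays, and Car6 was therefore left out of the shared fit. Car6 lies at chr4:150187015-150201135 on the minus strand of the mouse assembly GRCm38.p6. The 300 bases around its start, chr4:150201086-150201385, are shown with those of the 2 genes with a symbol that passed the test below, since these are the transcripts the comparison turns on. In each window, 250 bases precede a transcription start of RefSeq and 50 follow it, and capitals mark 3 motifs on either strand: the GC box, searched as GGGCGG, the CCAAT box, searched by the letters of its name, and the TATA box, searched as TATAAA. These motifs do not overlap each other in the windows printed.
Car6: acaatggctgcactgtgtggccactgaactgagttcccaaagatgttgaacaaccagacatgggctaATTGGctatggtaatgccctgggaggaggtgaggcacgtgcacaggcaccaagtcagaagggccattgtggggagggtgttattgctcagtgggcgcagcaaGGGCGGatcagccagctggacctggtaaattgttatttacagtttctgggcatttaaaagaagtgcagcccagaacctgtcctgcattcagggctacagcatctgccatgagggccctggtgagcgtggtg
Rab6b: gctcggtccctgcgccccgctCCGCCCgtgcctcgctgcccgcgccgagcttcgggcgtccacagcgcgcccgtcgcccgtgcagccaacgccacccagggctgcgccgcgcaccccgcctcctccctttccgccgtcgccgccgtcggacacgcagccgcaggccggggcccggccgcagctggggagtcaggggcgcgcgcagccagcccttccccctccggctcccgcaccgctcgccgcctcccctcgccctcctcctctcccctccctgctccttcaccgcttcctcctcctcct
Fbxo44: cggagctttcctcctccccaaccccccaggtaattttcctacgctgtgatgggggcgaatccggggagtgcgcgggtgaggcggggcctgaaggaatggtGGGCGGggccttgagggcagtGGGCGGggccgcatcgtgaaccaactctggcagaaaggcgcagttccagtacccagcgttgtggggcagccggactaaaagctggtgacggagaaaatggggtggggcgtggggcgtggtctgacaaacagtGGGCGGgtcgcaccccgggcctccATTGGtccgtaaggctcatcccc
The sequences are from RefSeq (GRCm38.p6). The Rab6b window is chr9:103111824-103112123 on the plus strand. For Fbxo44, on the minus strand, RefSeq gives 3 windows, and the outermost, chr4:148160045-148160344, is printed. The start in the window is the gene's outer boundary for Car6, and lies 407 bases inside it for Rab6b and 89 bases inside it for Fbxo44. The Car6 window holds 4 CG pairs, that of Rab6b 42 and that of Fbxo44 21, against a median of 7 over 32851 mouse windows of this length. GGGCGG was found once for Car6, once for Rab6b and 3 times for Fbxo44, and 35.7% of all windows hold it. CCAAT was found once for Car6 and once for Fbxo44 (37.4% of all windows), and TATAAA in none of the 3 (13.6% of all windows). These matches describe letters only.

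A feature was tested if its detection p was under 0.01 on 3 or more arrays in each tissue. This left 6587 features, of which 6129 were genes with a symbol and 458 were probes without one. Between 7868 and 11808 probes were detected per array. Replicate 3 arrays had the widest signal range in every tissue, with a ratio of the 99th percentile of signal to the median of 55.4 to 111.3, where arrays numbered 1 and 2 had 35.0 to 88.0. Salivary and gastric markers were highest where the labels place them, and intestinal markers were not so on every array. Summed salivary marker signal was 253140 to 340437 on gland arrays and at most 21101 elsewhere, and gastric marker signal was 276351 to 318033 on stomach arrays and at most 156214 elsewhere. Intestinal markers summed to 57558 to 82721 on the Car6-/- and 26770 to 52066 on the wild-type duodenal arrays, and these ranges did not overlap. On stomach arrays the intestinal sum reached 28939, above that of the lowest wild-type duodenal array. Gastric markers summed to 21608 to 114511 on the Car6-/- and 132045 to 156214 on the wild-type duodenal arrays, also without overlap. Pancreatic acinar markers gave 434146 to 497138 on the Car6-/- and 384733 to 519711 on the wild-type duodenal arrays, so those samples carried pancreatic transcripts too. Fibroblast and matrix markers summed to 14116 to 15572 on the Car6-/- and 15808 to 16432 on the wild-type gland arrays, and to 8911 to 9267 on the Car6-/- and 11439 to 12753 on the wild-type duodenal arrays, without overlap, while the ranges in the stomach overlapped. Macrophage markers were also apart in the gland, at 9670 to 11890 in Car6-/- mice and 12958 to 14760 in wild type, and smooth muscle markers in the duodenum, at 32589 to 45480 in Car6-/- mice and 45558 to 57102 in wild type. Intestinal markers were higher in the Car6-/- gland (4036 to 4120, against 3244 to 3926). Nerve and glia markers were higher in Car6-/- mice in both the gland and the duodenum, again without overlap. Squamous and skeletal muscle markers were lower in the Car6-/- duodenum, also without overlap. For single features the groups were apart for 15.7% in the gland and 28.3% in the duodenum. The part of the cells marked by these lists in the differences below was not tested. In whole tissue, fewer cells of a type and less RNA per cell cannot be told apart.

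A common difference past the threshold was found for 3 of the 6587 features, or 0.0455% (limma, Benjamini-Hochberg adjusted p under 0.05). They were 1 feature (0.0152%) that was higher in Car6-/- mice, a probe to which no gene is assigned, and 2 genes (0.0304%) that were lower, Rab6b and Fbxo44. At an unadjusted p under 0.05 there were 844 features, or 12.8%, of which 354 (5.37%) were higher and 490 (7.44%) lower. Within a single tissue this share was 7.35% in the gland, 5.48% in the stomach and 20.6% in the duodenum. The median shared difference over all features was -0.01 on the log2 scale, and its median standard error (SE) was 0.11. The count depended on the replicate 3 arrays: it was 10 without Car6-/- submandibular gland replicate 3, 9 without Car6-/- stomach replicate 3 and 6 without Car6-/- duodenum replicate 3. Without all 3 of these arrays it was 61 (13 higher and 48 lower), without wild-type replicate 3 in all 3 tissues it was 6, and without replicate 3 of both genotypes 34. Leaving out arrays also changes which features pass the filter, and with the 6587 features held fixed these 3 counts were 67, 18 and 46. With the replicate number as an additive term, a replicate block, the count was 6.

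A difference of more than 1 on the log2 scale was seen for 11 features (0.167%), and 2 of them passed the test, the unnamed probe and Rab6b. The other 9, which were named after their values were seen, included Timmdc1, a gene for an assembly factor of respiratory complex I, at 1.34 (SE 0.36, limma adjusted p = 0.157), Azgp1, the zinc-alpha-2-glycoprotein gene, at -1.03 (SE 0.25, adjusted p = 0.139), and Me1, the gene of the malic enzyme that supplies NADPH for fat synthesis, at -1.02 (SE 0.31, adjusted p = 0.203). Cyp2e1, a cytochrome P450 gene, was at -1.17 (SE 0.42, adjusted p = 0.268).

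**Figure D1:**
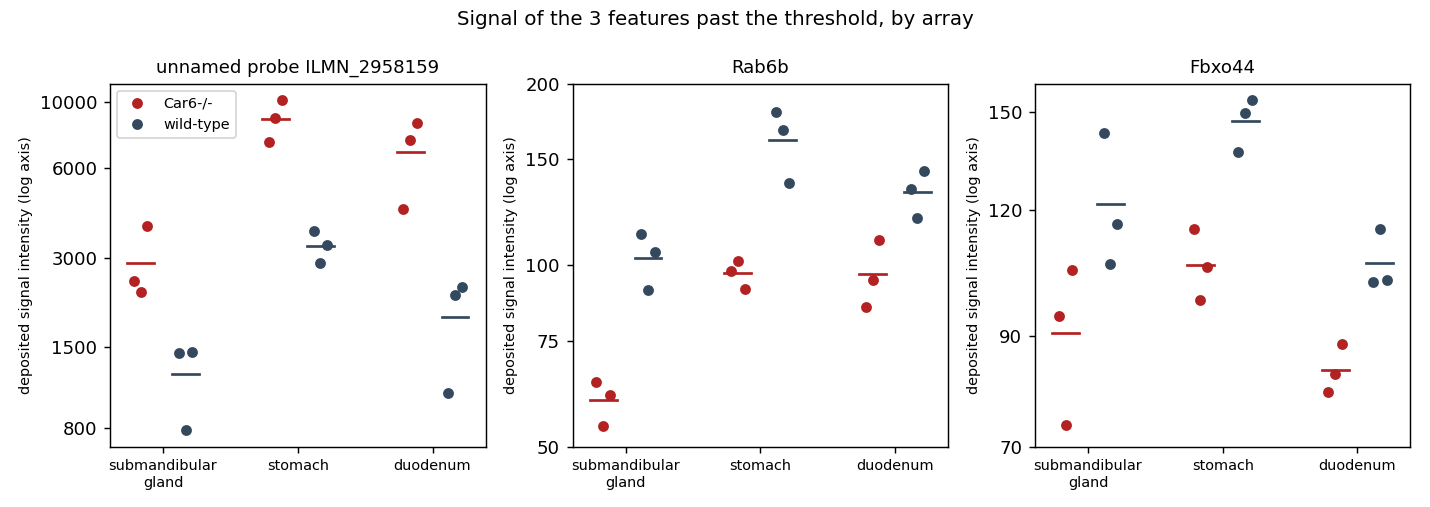
Deposited signal (log axis, not background-corrected) of the 3 features past the threshold on each of the 18 arrays, by tissue. Points are arrays and short lines are group means (n = 3), with Car6-/- in red on the left of each pair and wild type in dark blue on the right; in each tissue the groups do not overlap for any of the 3.

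The probe ILMN_2958159, which has no gene in the platform annotation used here, was the feature with the smallest p. Its signals in the submandibular gland were 2495, 2300 and 3826 on Car6-/- arrays and 1430, 787 and 1448 on wild-type arrays. In the stomach they were 7373, 8862 and 10182 in Car6-/- mice, against 3686, 2880 and 3315 in wild type. In the duodenum they were 4393, 7453 and 8560 in Car6-/- mice, against 1052, 2254 and 2392 in wild type. Every Car6-/- array stood above every wild-type array of its tissue, and the probe was detected on all 18 arrays. The shared difference was 1.39 (SE 0.12, limma adjusted p = 1.71e-06), with 1.12, 1.51 and 1.55 in the submandibular gland, the stomach and the duodenum (SE 0.19 each). The limma F test of whether the difference varied between the tissues gave an adjusted p = 0.658. Averaged over the 3 tissues by replicate number, the normalized log2 level was 12.33, 12.58 and 12.53 in Car6-/- mice, against 11.22, 11.03 and 11.01 in wild type. The probe passed in all 46 alternative settings tried, with differences from 1.31 to 1.54.

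Rab6b, at chr9:103111667-103185276, encodes a small GTPase of the Rab family that acts in membrane traffic at the Golgi apparatus. The signals in the submandibular gland were 64.1, 54.1 and 60.9 on Car6-/- arrays and 112.7, 91.1 and 105.2 on wild-type arrays. In the stomach the Car6-/- arrays gave 97.9, 101.6 and 91.4, against 179.6, 167.7 and 137.0 in wild type. Duodenal signals were 85.1, 94.6 and 110.2 in Car6-/- mice and 133.6, 119.6 and 143.1 in wild type. All 9 wild-type arrays detected the transcript and 1 of 9 Car6-/- arrays, a duodenal one, did. The groups did not overlap in any tissue. The shared log2 difference was -1.48 (SE 0.18, limma adjusted p = 0.000427), with -2.29, -1.13 and -1.01 in the gland, the stomach and the duodenum (SE 0.22 each). Because the Car6-/- level of the gland and the stomach was not above background, the measured fold there is a bound, at least 1.47-fold lower in each, and without background correction the shared difference was -0.81 (SE 0.11). The probe passed the detection filter in the gland and the stomach through its wild-type arrays alone. The fitted values for these tissues are differences from background, so their sizes cannot be compared. Without the submandibular gland the shared difference was -1.17 and did not pass (limma adjusted p = 0.0511), and with the tested features held fixed it did not pass without replicate 1 of both genotypes (adjusted p = 0.120).

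Fbxo44, at chr4:148152799-148160183 and thus on the chromosome of Car6, encodes an F-box protein, the part of a ubiquitin ligase that binds the target. In the submandibular gland its signals were 94.2, 73.5 and 104.6 on Car6-/- arrays, against 143.0, 106.1 and 116.3 on wild-type arrays. Stomach signals were 114.9, 97.7 and 105.4 in Car6-/- mice and 136.9, 149.5 and 154.1 in wild type. In the duodenum they were 79.2, 82.6 and 88.4 in Car6-/- mice, against 101.9, 115.0 and 102.3 in wild type. The Car6-/- arrays were the lower ones in every tissue without overlap, although in the gland the gap between 104.6 and 106.1 was narrow. Detection was reached on 4 of 9 Car6-/- arrays and on 9 of 9 wild-type arrays. The shared difference was -0.82 (SE 0.11, limma adjusted p = 0.000668), and it was -0.91, -0.74 and -0.82 in the 3 tissues in the same order (SE 0.19 each). In the duodenum no Car6-/- array detected Fbxo44, which passed the filter there through its wild-type arrays alone, and the level was at least 1.12-fold lower in Car6-/- mice. It was not tested when detection on all 18 arrays was required, and without background correction the shared difference was -0.47 (SE 0.08). With 1 mean per replicate number and genotype, as if the tissues came from 6 animals, Fbxo44 no longer passed (limma adjusted p = 0.212), nor did it without the stomach (adjusted p = 0.104) or without the duodenum (adjusted p = 0.0657). With the tested features held fixed it did not pass without replicate 2 of both genotypes (adjusted p = 0.192). In the fit of 3 means against 3, the unnamed probe (adjusted p = 0.00396) and Rab6b (adjusted p = 0.00674) passed.

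**Figure D2:**
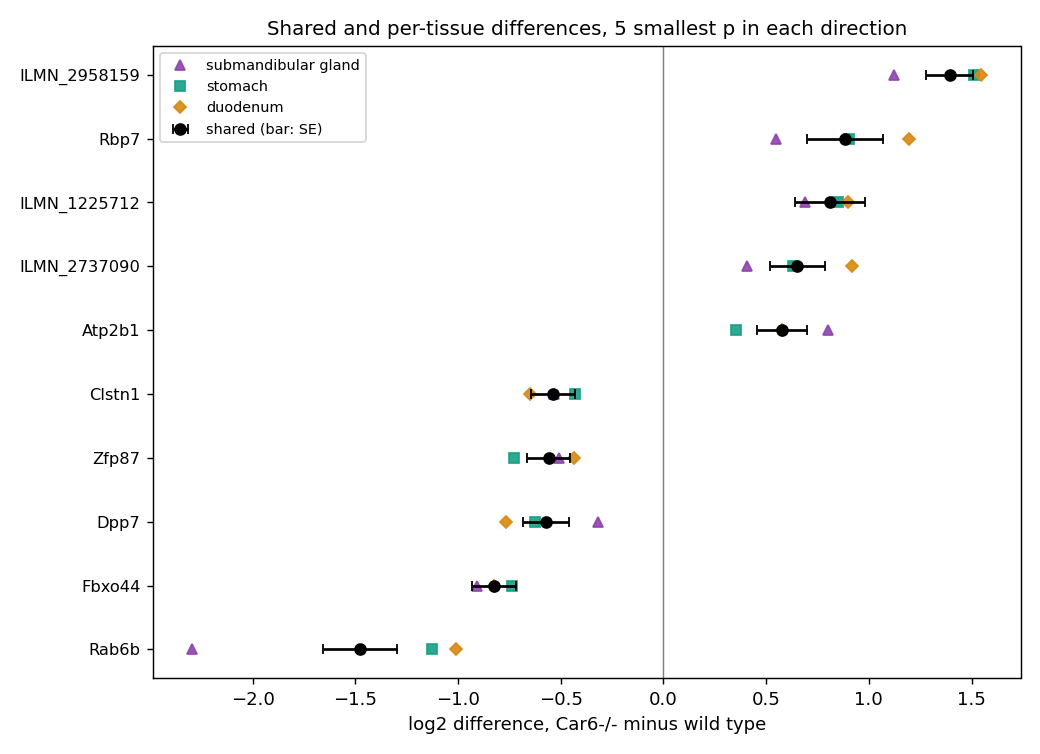
Log2 difference, Car6-/- minus wild type, of the 5 features with the smallest p in each direction. Black circles give the shared difference with its SE over 18 arrays, and coloured symbols the difference within each tissue (3 arrays against 3). All 10 features lie on the same side of 0 in the 3 tissues, which choice by the smallest shared p favours. The same sign in all 3 tissues was seen for 29.7% of all features and for each of the 50 with the smallest p. Only ILMN_2958159, Fbxo44 and Rab6b passed the threshold.

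Features next in order did not pass. On the lower side were Zfp87, a zinc finger protein gene, at -0.56 (SE 0.10, limma adjusted p = 0.0662), Dpp7, the gene of a dipeptidyl peptidase of vesicles and lysosomes, at -0.57 (SE 0.11, adjusted p = 0.0719), and Clstn1, the gene of the cadherin-related protein calsyntenin-1, at -0.54 (SE 0.11, adjusted p = 0.0719). On the higher side the 4 next features, each with an adjusted p of 0.0719, were the unnamed probes ILMN_2737090 at 0.65 (SE 0.13) and ILMN_1225712 at 0.81 (SE 0.17), the retinoid-binding protein gene Rbp7 at 0.88 (SE 0.19) and the calcium pump gene Atp2b1 at 0.58 (SE 0.12). Rbp7 signals in the duodenum were 892, 1356 and 1341 on Car6-/- arrays, against 229, 573 and 609 on wild-type arrays. In the submandibular gland they were 259, 234 and 229 in Car6-/- mice and 161, 180 and 171 in wild type. In the stomach 1292, 770 and 1155 in Car6-/- mice overlapped with 365, 571 and 1065 in wild type, so the Rbp7 groups were apart in 2 of 3 tissues. Clstn1 gave 95.8, 84.4 and 98.6 on the Car6-/- stomach arrays, against 109.1, 103.5 and 118.5 in wild type, whereas its groups overlapped in the gland on the signal scale, 131.7, 113.1 and 205.9 in Car6-/- mice against 167.7, 150.5 and 237.6 in wild type, and did so in the duodenum too. Atp2b1 was brightest in the duodenum, at 716, 1000 and 1490 in Car6-/- mice, against 309, 669 and 806 in wild type. Zfp87 gave 172, 157 and 232 in the Car6-/- stomach, against 262, 256 and 290 in the wild-type stomach, without overlap, and its signals overlapped in the other tissues. A second Zfp87 probe, detected on 7 of 9 Car6-/- and 6 of 9 wild-type arrays and not kept, gave 0.10.

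On the normalized scale the genotypes did not overlap in each of the 3 tissues for 11 features, or 0.167%, of which 4 (0.0607%) were higher and 7 (0.106%) lower in Car6-/- mice. Within a single tissue the groups were apart for 15.7% of features in the gland, 9.22% in the stomach and 28.3% in the duodenum. Besides the 3 that passed, the lower ones were Zfp87, Dpp7, Pdpn, Ephx1 and Kiz, and the higher ones Atp2b1, Abhd3 and Glyr1; these were listed after their values were seen. Pdpn, whose product podoplanin is a membrane mucin of lymphatic endothelium and other cells, was at -0.55 (SE 0.11, limma adjusted p = 0.0719), and Ephx1, the microsomal epoxide hydrolase gene, at -0.38 (SE 0.08, adjusted p = 0.0719). A difference of the same sign in all 3 tissues was seen for 1957 features, or 29.7%, with 14.4% higher and 15.3% lower in all 3. Across all features, which are not independent replicates and which share normalization, the differences of the gland and the stomach had a Pearson correlation of 0.19, those of the stomach and the duodenum 0.11, and those of the gland and the duodenum 0.05.

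The genes nearest to Car6 were described next, because Fbxo44 lies among them. Of the 392 tested genes of chromosome 4, 35 lie within 5 Mb of Car6. Past the threshold was 1 of the 35, and 7 had an unadjusted p under 0.05 (20%, against 12.8% of all features). The median difference of the 35 was 0.01, with 18 genes above 0 and 17 below, and after scaling to equal medians it was 0.11, where that of all features was 0.08. Among the 50 features with the smallest p, which are 0.759% of those tested, 9 were on chromosome 4 and 5 of these were within 5 Mb of Car6; the number 50 was chosen after the values were seen. The 5 were Fbxo44, Clstn1 and Rbp7, with the values above, and Agtrap and Klhl21. Agtrap, the gene of a protein that binds the angiotensin receptor, was at -0.58 (SE 0.13, limma adjusted p = 0.0867), with -0.34, -0.57 and -0.83 in the 3 tissues. Klhl21, which encodes an adaptor of a cullin ubiquitin ligase, was also at -0.58 (SE 0.13, adjusted p = 0.0867), with -0.24, -0.58 and -0.94. The other two with an unadjusted p under 0.05 were Ctnnbip1, the gene of an inhibitor of beta-catenin, at 0.37 (SE 0.12, adjusted p = 0.224), and H6pd, the gene of a hexose-6-phosphate dehydrogenase of the endoplasmic reticulum, at -0.38 (SE 0.14, adjusted p = 0.263). From 5 to 10 Mb away 5 of 37 genes had an unadjusted p under 0.05 (13.5%), from 10 to 20 Mb 11 of 62 (17.7%), and from 20 to 40 Mb 9 of 95 (9.47%). From 40 to 80 Mb 6 of 55 did (10.9%), and from 80 to 150 Mb 10 of 106 (9.43%). Over the whole of chromosome 4 these were 49 of 392 genes (12.5%, against 12.8% of all features).

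**Figure D3:**
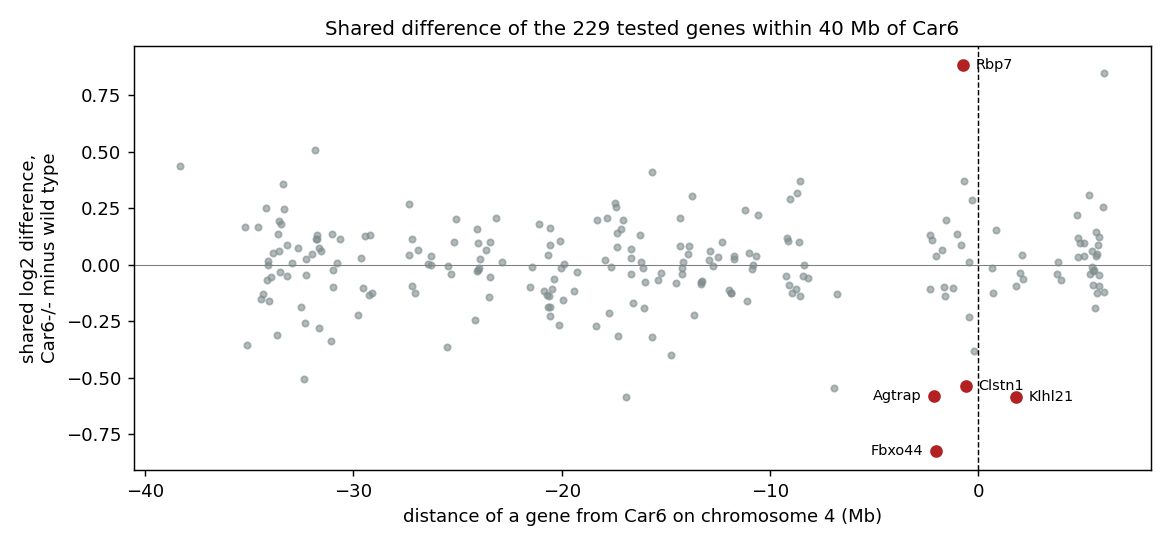
Shared log2 difference, Car6-/- minus wild type, of the 229 tested genes within 40 Mb of Car6, against their distance from it in Mb (dashed line at 0; negative values are towards the start of the chromosome). The 5 named genes in red, 4 lower and 1 higher in Car6-/- mice, are those among the 50 smallest p within 5 Mb of Car6.

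No gene listed for the handling of CO2, bicarbonate or protons passed the threshold. Of 11 carbonic anhydrase genes on the array, 7 were tested in all 3 tissues, and 0 passed the threshold in the shared fit (limma, background 0.0455%), with 2 at an unadjusted p under 0.05 (28.6% of the 7, against 12.8% of all features). The 7 shared differences were all below 0, with a median of -0.20, against -0.01 over all features, and medians of -0.36, -0.14 and -0.74 in the gland, the stomach and the duodenum. Car11, the gene of a carbonic anhydrase-related protein without catalytic activity, had the smallest p, at -0.61 (SE 0.17, limma adjusted p = 0.161), with -0.36, -0.46 and -1.0 in the gland, the stomach and the duodenum. Its signals in the duodenum were 84.96, 89.15 and 94.13 on Car6-/- arrays, none detected, against 123.7, 120.8 and 121.1 on wild-type arrays, so the fold there was at least 1.27. Car11 passed the filter in the duodenum through its wild-type arrays alone, so the value of -1.0 is a difference from background and not a measured size. Car2, which encodes the abundant cytosolic enzyme of secretory epithelia, was at -0.20 (SE 0.18, adjusted p = 0.645). Car4, the gene of a membrane-anchored form, was at -0.06 (SE 0.18, adjusted p = 0.908). Signs within tissues were mixed: Car2 was at 0.34 in the stomach and -0.74 in the duodenum, and Car4 at -0.61 in the gland and 0.71 in the duodenum. Car3, which encodes an enzyme of muscle and fat and also stands in the fat cell list below, was at -1.0 (SE 0.47, adjusted p = 0.385).

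Of 9 tested genes of bicarbonate and proton transport, 0 passed and 3 had an unadjusted p under 0.05 (33.3%, against 12.8% of all features). Slc4a3, an anion exchanger gene, was at -0.36 (SE 0.10, limma adjusted p = 0.180), with -0.39, -0.37 and -0.34 in the 3 tissues. Other Slc4a3 probes, detected on fewer arrays and not kept, differed. A probe detected on 3 Car6-/- and 4 wild-type arrays gave 0.24, with 0.15, 0.46 and 0.09 in the tissues. Another, detected on 4 and 6 arrays, gave -0.16, with 0.06, -0.20 and -0.33. Slc26a6, an anion exchanger gene of the intestine and exocrine glands, was at 0.43 (SE 0.15, adjusted p = 0.247), and Slc9a8, a sodium-proton exchanger gene, at 0.23 (SE 0.11, adjusted p = 0.364). The median of the 9 was -0.03 (0.06 after scaling to equal medians), and subunit genes of the vacuolar proton pump ran from -0.13 for Atp6v1e1 to 0.08 for Atp6v0a1.

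Over 34 lists of pathways and cell types and the list of neighbours of Car6, 407 distinct genes were tested, and 2 of them passed, Rab6b and Fbxo44. No list held another gene past the threshold. Counts and medians of a list describe it and were not tested. In 3 lists, of lymphoid and plasma cells, skeletal muscle, and nerve and glia, no gene was tested in all 3 tissues. Rab6b was 1 of 32 tested genes of Rab GTPases, whose median was -0.03 (0.05 after scaling to equal medians). Its close relative Rab6a was at 0.29 (SE 0.17, limma adjusted p = 0.456).

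Clock genes were mixed. Of 14 tested, 5 were higher and 9 lower in Car6-/- mice, with a median of -0.05 (0.04 after scaling to equal medians). The period genes Per1 and Per2, whose products repress the clock's transcription factors, were at 0.53 (SE 0.19, limma adjusted p = 0.264) and 0.56 (SE 0.17, adjusted p = 0.203), and both were above 0 in each tissue. Per2 signals in the duodenum were 646, 789 and 1201 on Car6-/- arrays and 264, 535 and 548 on wild-type arrays. In the gland 190, 145 and 378 in Car6-/- mice overlapped with 203, 103 and 207 in wild type. A second kept probe of Per2 gave a shared difference of 0.67 and a second kept probe of Per1 one of 0.47. Nr1d1 at -0.12 (adjusted p = 0.576) and Dbp at -0.19 (adjusted p = 0.645), which follow the clock in most tissues, were on the other side of 0.

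**Figure D4:**
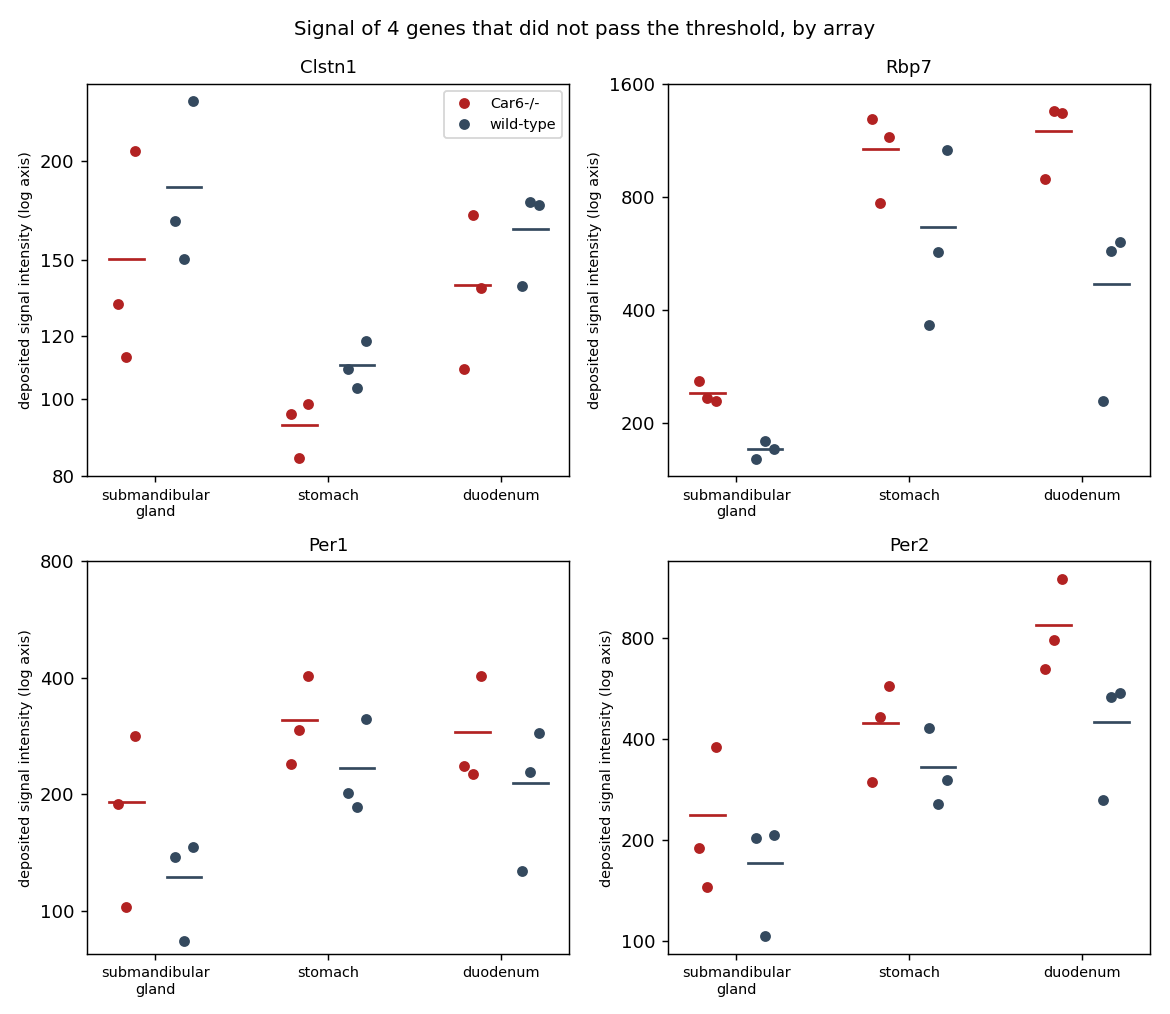
Deposited signal (log axis) of Clstn1, Rbp7, Per1 and Per2 on each array by tissue, Car6-/- in red on the left and wild type in dark blue on the right, with lines at the group means (n = 3). None of the 4 passed the threshold; the Rbp7 groups are apart in the gland and the duodenum and overlap in the stomach, and the Per1 groups overlap in each tissue.

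Glycolysis genes had a shared median of 0.13, and their medians were 0.12 in the gland, 0.10 in the stomach and 0.16 in the duodenum. Of its 12 tested genes 8 were higher and 4 lower, and 0 passed. In all 3 tissues 3 of the 12 were above 0 and 2 below, against 14.4% and 15.3% of all features. For 3 of the 12 the difference varied between tissues at an unadjusted p under 0.05 (limma F test), against 12.9% of all features. Pkm, which encodes the pyruvate kinase of most non-hepatic tissues, was at 0.41 (SE 0.09, limma adjusted p = 0.0964). The Pkm signals ran from 1129 to 13422 with a median of 8119 on the 9 Car6-/- arrays, and from 655 to 11562 with a median of 5813 on the 9 wild-type arrays, and they were lowest in the gland in both genotypes. Pgam1, the phosphoglycerate mutase gene, was at 0.26 (SE 0.09, adjusted p = 0.247). Gapdh was at 0.16 and Ldha at 0.17 (adjusted p = 0.512 and 0.519). In the cell cycle list 10 of 10 genes were above 0, with a median of 0.14 (0.24, -0.07 and 0.38 in the 3 tissues), where 48.8% of all features were above 0 (69% after scaling to equal medians). Of the 10, 0 passed and 2 had an unadjusted p under 0.05 (20%, against 12.8% of all features). Its smallest p was that of Mcm2, a subunit gene of the replicative helicase, at 0.34 (SE 0.10, adjusted p = 0.181).

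For interferon response and antigen presentation the tissue medians lay further apart than those of glycolysis. Interferon response genes had a shared median of 0.34 with 13 of 14 above 0, but the tissue medians were -0.48 in the gland, -0.03 in the stomach and 1.05 in the duodenum, and without the duodenum the shared median was -0.24. Isg15, whose product is conjugated to proteins in the interferon response, had a shared difference of 0.85 (SE 0.48, limma adjusted p = 0.449), with -0.76, 0.47 and 2.84 in the 3 tissues. Irf1, the gene of a transcription factor of interferon signalling, was at 0.58 (SE 0.18, adjusted p = 0.203), with 0.95, -0.18 and 0.97. The 3 other kept Irf1 probes gave 0.23, -0.36 and -0.05 in the gland and 0.04, 0.35 and 0.34 in the stomach, so the probes disagreed in sign in both tissues, and 0.82, 1.25 and 1.25 in the duodenum. The 17 tested genes of antigen presentation had a shared median of 0.28, with -0.21, -0.07 and 0.88 in the tissues and -0.11 without the duodenum. For 12 of the 14 interferon genes and 11 of the 17 antigen presentation genes the difference varied between tissues at an unadjusted p under 0.05, against 12.9% of all features, and 0 passed after adjustment.

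**Figure D5:**
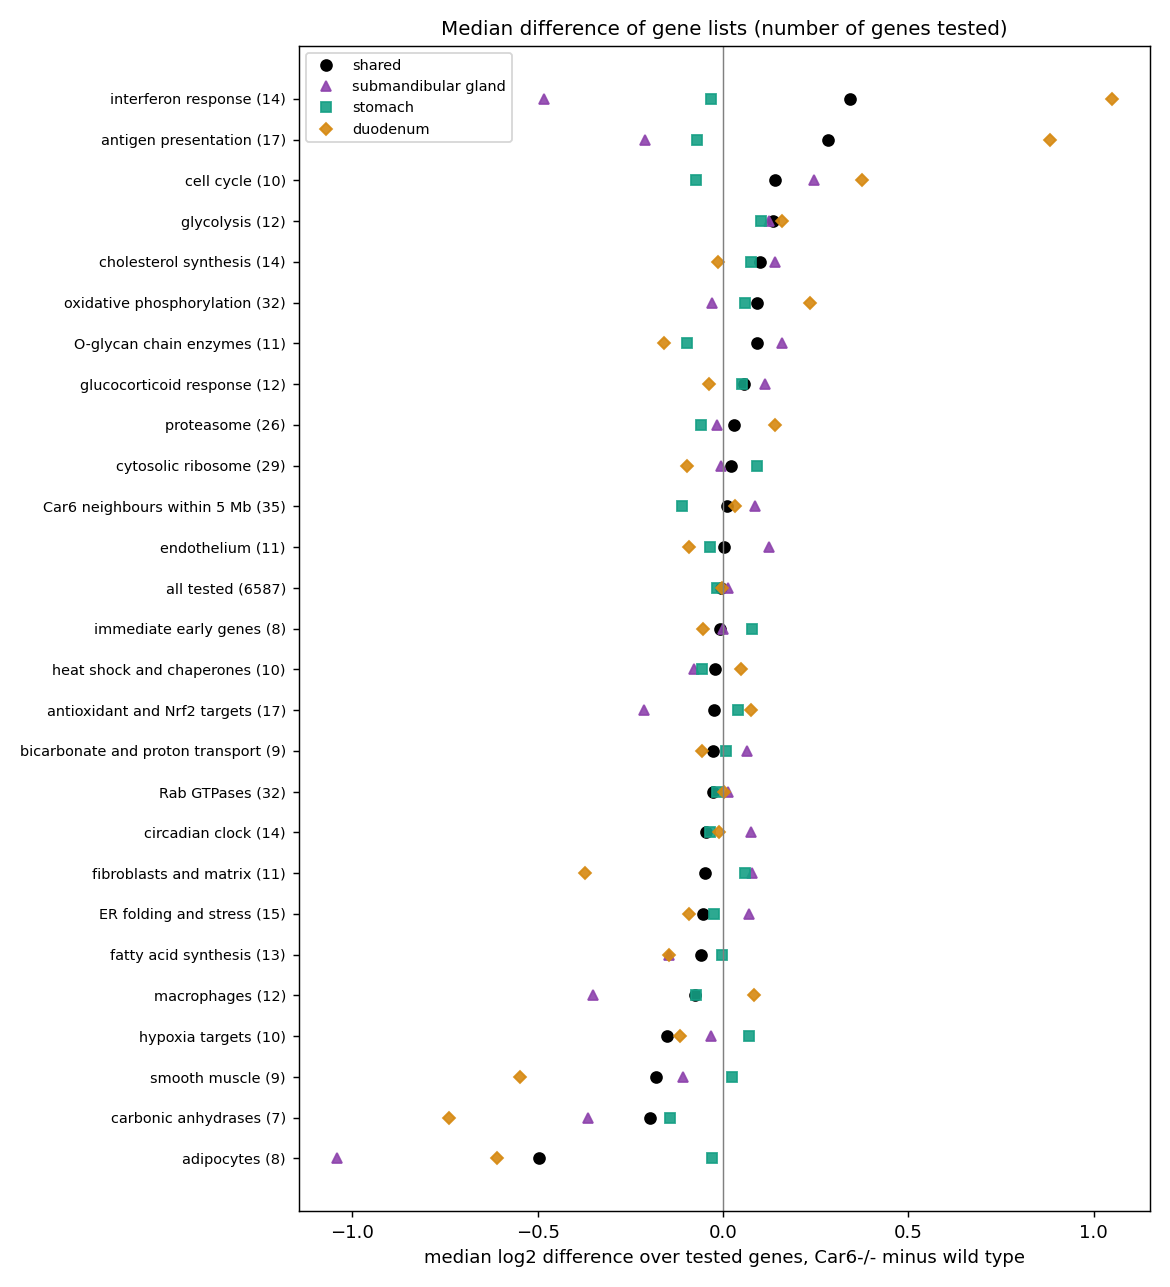
Median log2 difference, Car6-/- minus wild type, of gene lists with at least 7 tested genes, with the number tested in brackets. Black circles are shared medians and coloured symbols the medians within a tissue. The tissue medians of glycolysis lie between 0.10 and 0.16, while those of the interferon response span -0.48 to 1.05. Like medians do not show that single genes agree: 3 of the 12 glycolysis genes were above 0 and 2 below 0 in all 3 tissues.

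Fat cell genes were the list with the lowest shared median among those with 7 or more tested genes, at -0.50, and 8 of 8 were below 0 in the shared fit. The tissue medians were -1.04 in the gland, -0.03 in the stomach and -0.61 in the duodenum, and 0, 4 and 3 of the 8 were above 0 there in that order. None passed the threshold, and 4 had an unadjusted p under 0.05 (50%, against 12.8% of all features). Adipoq, the gene of the hormone adiponectin, was at -1.07 (SE 0.46, limma adjusted p = 0.345), and Lpl, the lipoprotein lipase gene, at -0.59 (SE 0.27, adjusted p = 0.371). The Adipoq signals in the gland were 153, 128 and 521 on Car6-/- arrays, against 928, 318 and 346 on wild-type arrays, and in the stomach 306, 84 and 882 in Car6-/- mice, against 190, 250 and 1064 in wild type, so the groups overlapped in both. The summed signal of the 16 adipocyte markers on the array was 5581 to 7866 in the Car6-/- and 7160 to 19172 in the wild-type gland, 9884 to 11909 in the Car6-/- and 8293 to 13312 in the wild-type stomach, and 6235 to 6768 in the Car6-/- and 6330 to 6518 in the wild-type duodenum. These ranges overlapped in all 3 tissues, and the part of fat tissue in the samples was not tested.

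For 4 features, or 0.0607%, the genotype difference varied between tissues past the threshold (limma F test, adjusted p under 0.05), and 851 features, or 12.9%, did so at an unadjusted p under 0.05. These were Gcnt1, Ogfod1, Brf1 and Mfsd7a. Gcnt1 and Ogfod1 passed the filter in the gland through their Car6-/- arrays alone, and the 4 were not tested when detection on all 18 arrays was required, where the count was 0. The count was 74 without Car6-/- duodenum replicate 1, 63 without wild-type duodenum replicate 3, 13 without wild-type submandibular gland replicate 3, 7 without wild-type stomach replicate 2, 2 without Car6-/- submandibular gland replicate 2, and 0 without replicate 1 or replicate 3 of that group. Leaving out any Car6-/- gland array also took Gcnt1 and Ogfod1 out of the test. None of the 4 passed in the shared fit, with adjusted p from 0.350 to 0.521. Barx1, a homeobox gene of the stomach wall, was next by p, at -1.92 in the duodenum, 0.01 in the stomach and 0.11 in the gland (limma F test, adjusted p = 0.0744), beside the lower gastric markers of the Car6-/- duodenum given above. In the Car6-/- duodenum only replicate 1 detected Barx1, so the value of -1.92 is in part a difference from background.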

How the data were processed

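RNA of 18 samples was measured on Illumina bead arrays with 25697 probes. Per the labels' protocols, total RNA was purified with DNase treatment, amplified and labelled. The deposited signal intensities, 1 per probe and array, ranged from 36.7 to 40788 and were not normalized, per the file headers and the values. A detection p-value was deposited beside each intensity by the authors. The authors also deposited log2 values, whose sorted values differed by at most 0.005 from a quantile normalization of each tissue by itself. Which software made these files was not given in the sources used here.

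From the intensities, limma 3.58.1 (R 4.3.3) computed background-corrected, quantile-normalized log2 values over all 18 arrays (neqc, offset 16). Probes with a detection p under 0.01 on 3 or more arrays in each tissue were kept (8338), and the brightest probe stood for a gene, which left 6587 features. The fit held tissue and genotype, p-values were adjusted by the Benjamini-Hochberg method over all features, and the threshold was 0.05. A second fit with a mean for each of 6 groups gave tissue differences and the F test of their variation. Differences are log2, Car6-/- minus wild type. "At least" folds, on quantile-normalized signals without background correction, compare the detected group with the lowest detected signal.

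Symbols came from the platform annotation through RefSeq (GRCm38.p6): 23978 probes had a symbol, 1719 had none and 0 had several. The text names the 5 features with the smallest p in each direction, the smallest p of some lists and the genes whose difference varied between tissues. The others named are said to be chosen after their values were seen or are members of a list. For many lists the gene with the smallest p is not named. The members and lists were chosen with earlier results of these data known. Alternatives changed the background correction, scaling, filter, probe choice, blocks, weights and the arrays used, and the number of arrays limits the precision. Deviations of same-numbered arrays of the 2 genotypes correlated at over 0.1 in 3 of 3 pairs in the gland, 3 of 3 in the duodenum and 1 of 3 in the stomach. Across tissues, same-numbered arrays of 1 genotype correlated above 0 in 17 of 18 pairs (median 0.13). With other numbers of that genotype 13 of 36 did (median -0.10), and with the same number of the other genotype 11 of 18 (median 0.08). Whether a number marks an animal was not settled. A term for the number within genotype, given below, cannot tell an animal from anything else that a number shares. The reported p-values treat the 18 arrays as independent. The labels name nothing that a number marks, so the reported fit has no replicate block, and the blocked fits are alternatives. Scripts were tested on simulated data.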

Additional observations from a re-analysis of the deposited data

Results flagged for a closer look

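For 4 genes the difference between genotypes itself differed between tissues (limma F test, adjusted over 6587 features). Gcnt1, the gene of a glycosyltransferase that starts core O-glycan branches, differed by 3.63 in the submandibular gland, -0.55 in the stomach and -0.82 in the duodenum (adjusted p = 9.16e-05). Its gland signals were 352, 224 and 396 on Car6-/- arrays, against 67.1, 77.4 and 74.0 on wild-type arrays, none of which detected it. The means were 324 and 72.8, and on quantile-normalized signals the level was at least 4.99-fold higher in Car6-/- mice. Ogfod1, the gene of an oxygenase that hydroxylates a ribosomal protein, differed by 1.77, -0.25 and -0.12 in the same order (adjusted p = 0.000196), and in the gland, where wild-type arrays did not detect it, the level was at least 1.58-fold higher in Car6-/- mice on the same scale. Both genes passed the filter in the gland through the Car6-/- arrays alone, so their gland values of 3.63 and 1.77 are differences from background and not measured sizes. Brf1, a gene of the RNA polymerase III initiation machinery, differed by 2.09, -0.11 and -0.13 (adjusted p = 0.00419). Its gland signals were 188, 130 and 206 on Car6-/- arrays and 75.4, 78.4 and 89.0 on wild-type arrays. Of these wild-type arrays only replicate 3 detected Brf1, so the value of 2.09 is in part a difference from background. Mfsd7a, a gene of the major facilitator family of transporters, differed by 0.28, -0.17 and -1.39 (adjusted p = 0.0303). Mfsd7a did not pass without background correction, with an offset of 50, with median scaling or with an ordinary test per gene. Its duodenal signals were 113, 107 and 120 on Car6-/- arrays and 160, 250 and 186 on wild-type arrays, without overlap.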

How the results depend on the processing

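The count of 3 shared features was 5 with detection on 3 or more of 18 arrays, 1 with detection on all 18, 6 with the number as an additive replicate block, 45 with array weights, and 2 to 10 with 1 array left out. Chosen after seeing the data, leaving out Car6-/- replicate 3 in all tissues gave 61, wild-type replicate 3 gave 6 and replicate 3 of both genotypes gave 34. The replicate block within each tissue gave 3. The count of 2 list members past the threshold became 0 with detection on all 18 arrays, 1 with a mean per animal, 9 with weights, 1 without each tissue, 1 to 5 with 1 array left out, 6 without Car6-/- replicate 3 in all tissues, 1, 0 and 1 without wild-type replicate 1, 2 and 3, and 0 without replicate 1 or 2 of both genotypes. Rab6b and Fbxo44 passed the filter in some tissues through wild-type arrays alone, so leaving out such an array took them out of the test. With the tested features held fixed, both passed in all 18 fits with 1 array left out. Both also passed in all 6 fits without 1 replicate number of 1 genotype, and each in 2 of 3 without 1 number of both genotypes. The interaction count of 4 was 1 with median scaling, 9 with the deposited log2 values, 13 without a detection filter, 13 with detection on 3 or more of 18 arrays, 0 on all 18, 7 with the additive replicate block, 16 with weights, 2 with an ordinary test and 0 to 74 with 1 array left out. Without the duodenum the shared differences of Barx1 (0.0545), Mfsd7a (0.0532) and Pgc (0.0400) changed sign, and without the submandibular gland those of Brf1 (-0.12), Gcnt1 (-0.72), Ogfod1 (-0.19) and Hspe1 (0.000151) did. Krt10 ran from -0.40 to 0.0059 with 1 array left out, and was 0.10 without Car6-/- replicate 3 and 0.13 without replicate 3 of both genotypes. Median scaling put 69% of all features above 0, against 48.8%. The causes were not tested. Rab6b and Fbxo44 were near background in Car6-/- mice, so their size depends on the background correction; fewer features are tested under the stricter filter, which drops both.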

Other observations

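Timmdc1 signals were 208, 188 and 314 in the Car6-/- gland and 236, 78.3 and 78.7 in the wild-type gland, and 431, 400 and 532 in the Car6-/- stomach and 439, 148 and 160 in the wild-type stomach. In the duodenum they were 356, 436 and 576 in Car6-/- mice and 326, 142 and 158 in wild type. In each tissue wild-type replicate 1 lay in or near the Car6-/- range, as was noticed after the values were seen. A term for the replicate number within genotype, across tissues, passed for 52 features (0.789%; limma), led by Timmdc1 (adjusted p = 7.54e-05) and Oit1 (adjusted p = 0.000473).

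A Pgk1 probe, for the glycolytic phosphoglycerate kinase, was detected on the 3 Car6-/- gland arrays alone, at 264, 222 and 227, against 60.1, 63.2 and 64.7 in the wild-type gland, which is at least 3.73-fold higher. It gave 92.3, 87.6 and 91.5 in the Car6-/- and 69.7, 72.7 and 67.8 in the wild-type stomach, and 76.9, 85.1 and 89.4 in the Car6-/- and 62.9, 78.4 and 67.9 in the wild-type duodenum, all undetected, so it was not tested.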
